A study of Mus musculus with 28 samples.

Results

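Iron and heme handling was described here through 10 genes in the mouse lung carcinoma line 3LL, derived from the Lewis tumor, and in the tumors that its cells form. The genes were Hmox1, Blvra and Blvrb of heme breakdown, Fth1 and Ftl1 of iron storage, Slc40a1 of iron export, Tfrc, Slc11a2 and Steap3 of iron uptake, and Fech of heme synthesis. Members were the table entries that carry these gene symbols, 10 of the 18509 entries with a symbol and of 43143 entries in all. The study asked how loss of KEAP1, and then of NRF2 as well, changes lung carcinoma cells in culture and as tumors. There were 28 RNA-seq libraries in 7 groups of 4.

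The cultured groups were wild-type (WT) 3LL cells, Keap1-KO cells (KEAP1-KO) and Keap1-Nrf2-DKO cells (DKO), all grown in RPMI medium. The tumor groups came from the same lines, injected under the skin of the flanks of male albino C57BL/6 mice aged 6 weeks and removed after 10 days. Each mouse bore a tumor on either flank, WT (left) and KEAP1-KO (right) in experiment A, and KEAP1-KO (left) and DKO (right) in experiment B. Edited lines were made with a Cas9 plasmid and guides against exon 2 of Keap1 and exon 5 of Nrf2, each grown from a single colony, and the DKO line was derived from the KEAP1-KO line. The sources used here describe WT cells as the parental line, with no cloning step, and do not say how many of the cloned lines of a genotype gave the libraries. The tumors also hold cells of the host, whose Keap1 and Nrf2 were not edited. The study describes 4 tumors per genotype in each experiment, while the labels do not say whether the libraries of a cultured group came from separate cultures, so p-values in culture measure only the spread between these libraries, which may be technical.

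Heme oxygenase 1, encoded by Hmox1, opens the heme ring and frees iron, carbon monoxide and biliverdin, which biliverdin reductase A, encoded by Blvra, reduces. Blvrb encodes biliverdin reductase B. Freed iron is stored in ferritin shells built of heavy (Fth1) and light (Ftl1) chains, or leaves the cell through ferroportin (Slc40a1), which macrophages that clear red blood cells carry in abundance. KEAP1 marks the transcription factor NRF2 for degradation, and NRF2 activates stress and detoxification genes, among which Hmox1, Blvrb, Fth1, Ftl1 and Slc40a1 are well known. Iron regulatory proteins bind a short hairpin, the iron-responsive element, before the start codon of ferritin and ferroportin mRNAs, where they hold back translation, and after the stop codon of the Tfrc mRNA, where they protect it from decay.

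The hairpins are shown because they set out how storage, export and uptake genes are linked through the same element. The search was for a bulged C, 5 bases, the letters CAGTG and 6 further bases on the transcript strand, with all 5 bases on each side of the 6-base loop able to pair, in the GENCODE vM21 transcripts on GRCm38. It matched 4 of the 10 members, at 7 sites, against 0.808% of the 55450 annotated genes. Capitals mark the loop, and each window is written 5′ to 3′ on the transcript strand.
Fth1 before the start codon (chr19:9982732-9982760, plus strand): ttcctgcttcaaCAGTGCttgaacggaac
Ftl1 before the start codon (chr7:45459779-45459807, minus strand): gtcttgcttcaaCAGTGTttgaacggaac
Slc40a1 before the start codon (chr1:45925465-45925493, minus strand): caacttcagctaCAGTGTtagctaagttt
Tfrc after the stop codon (chr16:32631219-32631247, plus strand): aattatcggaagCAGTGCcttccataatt
Tfrc after the stop codon (chr16:32631598-32631626, plus strand): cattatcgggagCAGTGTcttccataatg
Tfrc after the stop codon (chr16:32631663-32631691, plus strand): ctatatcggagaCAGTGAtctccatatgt
Tfrc after the stop codon (chr16:32631710-32631738, plus strand): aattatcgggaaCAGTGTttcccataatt
Allowing 4 of the 5 pairs, a setting chosen after the data were seen, raised the matched members to 6 and the share of genes to 6.53%. That setting took in 2 sites in a listed noncoding transcript of Fech and a window after the stop codon of Slc11a2 (chr15:100395153-100395181, minus strand), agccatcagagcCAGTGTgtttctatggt. A match is a description of the letters and not evidence of binding.

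The core of the antioxidant response element bound by NRF2, TGACNNNGC on either strand, was sought in the 6 members with a promoter in the RefSeq table of GRCm38.p6, each window running from 250 bases before to 50 bases after the start. It was found in 1 of the 6, Blvra, against 13.99% of the 27025 genes with a promoter of the same length in that table. The Blvra match lies 49 bases before the start, on the opposite strand, and is in capitals in chr2:127070598-127070627 (plus strand), cacgggaattGCTCGGTCAaggctccgcct. The looser TGANNNNGC was found in 3 members and in 45.05% of the genes. The stretch of 250 bases before the Blvrb start (chr7:27447728-27447977, plus strand) is given because Blvrb differed most between KEAP1-KO and both other genotypes, with the looser match, opposite strand, in capitals:
Blvrb: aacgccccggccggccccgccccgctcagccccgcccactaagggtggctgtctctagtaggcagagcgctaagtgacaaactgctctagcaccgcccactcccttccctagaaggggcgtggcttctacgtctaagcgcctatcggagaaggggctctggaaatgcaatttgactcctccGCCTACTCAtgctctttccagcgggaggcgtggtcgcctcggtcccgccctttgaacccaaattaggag
Absence of the stricter letters from this window says nothing about binding elsewhere.

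Values are given as log2 levels, log2(normalized count + 4) as deposited, so that 2 stands for no reads. The normalized counts correspond to whole reads divided by 1 factor per library, with 4222386 to 7524301 reads per library over all listed entries. Each entry is a transcript or a gene, and each of the 10 members is measured through 1 transcript entry. By their transcript IDs 6 of the 10 are annotated as retained-intron transcripts (Hmox1, Blvra, Blvrb, Ftl1, Slc40a1 and Tfrc), 1 as subject to nonsense-mediated decay (Fech) and 3 as protein coding (Fth1, Slc11a2 and Steap3). The share of the transcript's bases that lie in exons of coding transcripts of the same gene ranged from 9.0% for Blvrb to 100% for Fth1. Levels are therefore those of these transcripts, as apportioned by the authors' software, and are not compared between genes. None of the 15 transcripts of these genes with a consensus coding sequence is among the listed entries. Sums of the listed transcripts of a gene, given below, therefore leave them out.

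The genotype labels were checked on Keap1, which averaged 9.45 in WT cells and 7.59 in KEAP1-KO cells, and 8.88 in WT tumors against 7.45 and 7.46 in KEAP1-KO tumors of experiments A and B. The NRF2 target Nqo1 averaged 9.01, 12.45 and 6.77 in WT, KEAP1-KO and DKO cells. The Nfe2l2 entry is a transcript that does not test the Nrf2 edit. The labels' extraction text names liver, and of 5 hepatocyte markers 1 was listed, with at most 6.76 normalized counts in any library. Marker sums for macrophages were 197 to 250 normalized counts in the cultured libraries and 2910 to 8100 in the tumor libraries.

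**Figure D1:**
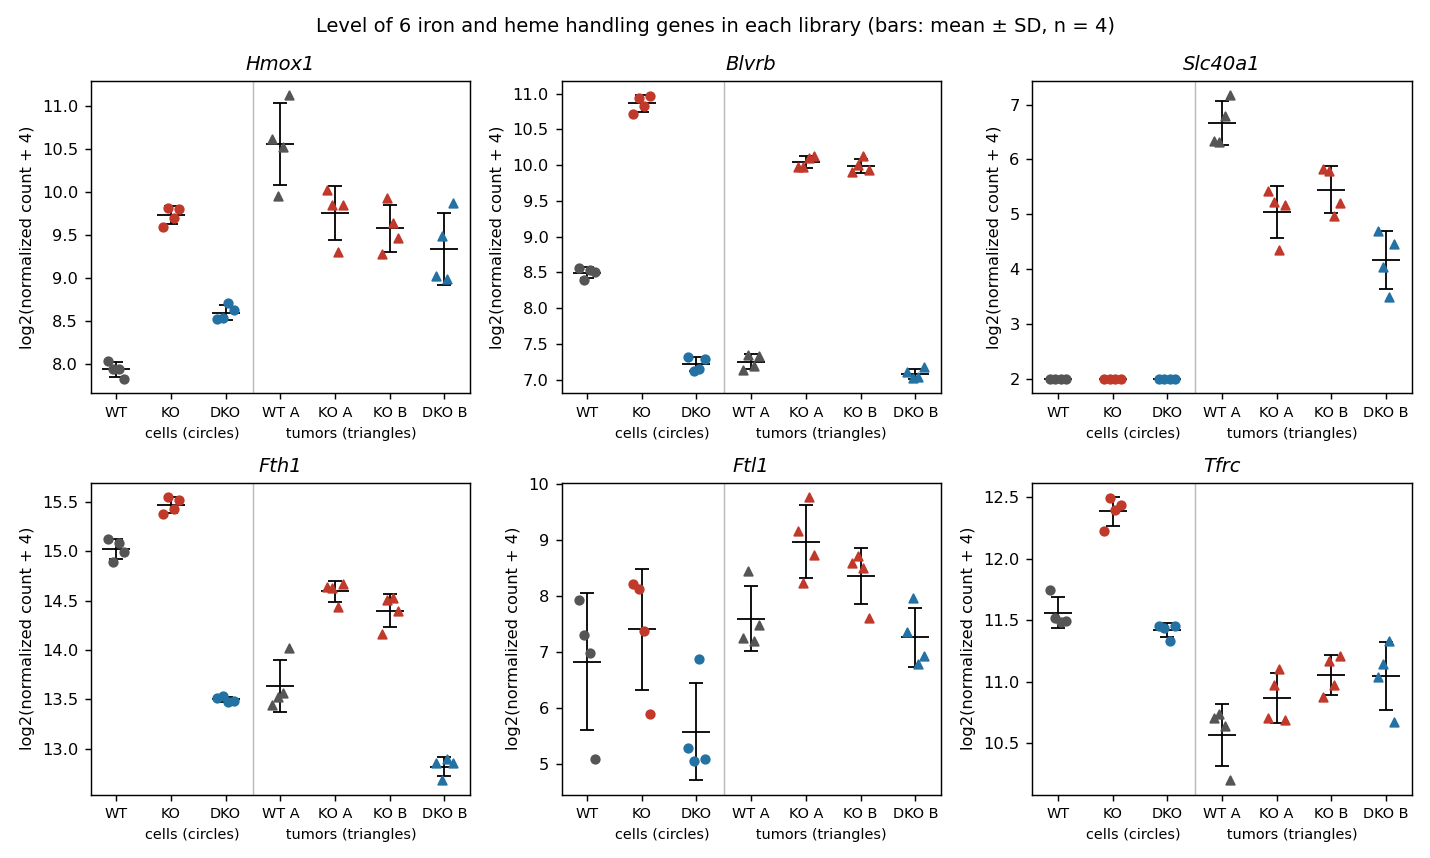
Log2 level of Hmox1, Blvrb, Slc40a1, Fth1, Ftl1 and Tfrc (vertical axes) in every library of the 7 groups (horizontal axis). Each point is 1 library, and each bar gives a group mean and its SD. Blvrb and Fth1 stand high in the KEAP1-KO groups and low in the DKO groups, whereas Slc40a1 had no reads in any cultured library and was highest in WT tumors.

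In culture Hmox1, Blvrb, Fth1 and Tfrc were higher in KEAP1-KO than WT cells, and all 4 were lower again in DKO than KEAP1-KO cells. Of the 10 members 6 passed the filter on low values in the cultured libraries, so the counts are 4 of 6 in each comparison. Between KEAP1-KO and WT cells 15.5% of all entries tested changed and 8.13% were higher, and between DKO and KEAP1-KO cells 8.83% changed and 4.85% were lower. In tumors, KEAP1-KO against WT within experiment A, 9 members were tested and 5 changed, with 13.1% of all entries changed, 5.61% higher and 7.49% lower. Blvrb, Fth1 and Ftl1 were higher and Hmox1 and Slc40a1 lower. In DKO against KEAP1-KO tumors within experiment B 3 of the 9 changed, Blvrb, Fth1 and Slc40a1, all lower, with 8.86% of all entries changed and 4.64% lower. The median log2 difference of the members tested, beside that of all entries, was 0.70 beside 0.02 for KEAP1-KO minus WT cells, −1.48 beside −0.03 for DKO minus KEAP1-KO cells, 0.38 beside −0.03 for KEAP1-KO minus WT tumors and −0.24 beside 0 for DKO minus KEAP1-KO tumors.

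Blvrb, biliverdin reductase B, had the largest differences of the members tested between KEAP1-KO and WT and between DKO and KEAP1-KO, in cells and in tumors. In culture its log2 levels were 8.56, 8.39, 8.53 and 8.50 in WT, 10.71, 10.94, 10.83 and 10.97 in KEAP1-KO and 7.32, 7.12, 7.15 and 7.29 in DKO cells. In tumors they were 7.14, 7.35, 7.19 and 7.33 in WT, 9.97, 9.97, 10.11 and 10.12 in KEAP1-KO of experiment A, 9.91, 10.002, 10.13 and 9.93 in KEAP1-KO of experiment B and 7.11, 7.02, 7.04 and 7.18 in DKO. Every KEAP1-KO library stood above every WT and every DKO library in the same setting. The level was 5.15-fold higher in KEAP1-KO than WT cells (limma adjusted p = 4.48e-10) and 6.91-fold higher in KEAP1-KO than WT tumors (adjusted p = 2.26e-12). It was 12.5-fold lower in DKO than KEAP1-KO cells (adjusted p = 7.62e-12) and 7.49-fold lower in DKO than KEAP1-KO tumors (adjusted p = 4.83e-13). In culture DKO cells also lay below WT cells, by 2.42-fold (adjusted p = 9.8e-08), while DKO minus WT tumors gave −0.17 on the log2 scale (adjusted p = 0.187).

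Hmox1, the heme-opening enzyme, differed between genotypes one way in culture and another way in tumors. In cultured WT cells it read 8.04, 7.94, 7.94 and 7.83, in KEAP1-KO cells 9.59, 9.81, 9.70 and 9.80 and in DKO cells 8.52, 8.53, 8.70 and 8.63. The 3 cultured groups did not overlap, and DKO cells lay between the other two. Hmox1 was 3.45-fold higher in KEAP1-KO than WT cells (limma adjusted p = 4.12e-09), 2.19-fold lower in DKO than KEAP1-KO cells (adjusted p = 3.18e-07) and still 1.58-fold higher in DKO than WT cells (adjusted p = 2.4e-05).

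In tumors the Hmox1 levels were 10.62, 9.95, 10.52 and 11.12 in WT and 10.02, 9.85, 9.30 and 9.84 in KEAP1-KO of experiment A. In experiment B they were 9.27, 9.92, 9.64 and 9.46 in KEAP1-KO and 9.02, 9.48, 8.98 and 9.86 in DKO. WT and KEAP1-KO tumors overlapped, since the lowest WT library (9.95) lay below the highest KEAP1-KO library (10.02). KEAP1-KO tumors were 1.74-fold lower than WT tumors (log2 difference −0.80, SE 0.24, limma adjusted p = 0.0378), a call lost without WT replicate 1, 3 or 4 or KEAP1-KO replicate 2, 3 or 4. Adjusted p ranged from 0.0102 to 0.11 over the 18 alternatives, and 11 of them lost the call. DKO minus KEAP1-KO tumors gave −0.24, with a 95% interval from −0.75 to 0.27 (adjusted p = 0.663). In bulk tumor RNA, fewer cells of a type and less RNA per cell cannot be told apart, and the tumors hold host cells.

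Macrophage markers moved with Hmox1 between WT and KEAP1-KO tumors. Their summed normalized counts, over 11 of 12 markers listed, were 5910 to 8100 in WT tumors, 2910 to 3410 in KEAP1-KO tumors of experiment A, 4540 to 5130 in those of experiment B and 5510 to 7040 in DKO tumors. Of the 11 markers 10 were lower in KEAP1-KO than WT tumors, and 4 were higher in DKO than KEAP1-KO tumors. Leukocyte markers summed to 1550 to 1910, 332 to 375, 514 to 701 and 1010 to 1610 in the same order, with 5 of 5 lower in the former comparison and 5 of 5 higher in the latter. Red blood cell marker sums ranged from 1100 to 2140 in WT, 733 to 2250 and 772 to 1540 in KEAP1-KO and 427 to 1340 in DKO tumors. None of 6 red blood cell markers changed in either comparison. Fibroblast markers summed to 4300 to 11400 in WT, 1670 to 4470 and 2410 to 3220 in KEAP1-KO A and B and 10400 to 14300 in DKO tumors. Of 6 fibroblast markers 1 was lower in KEAP1-KO than WT tumors, and 3 were higher in DKO than KEAP1-KO tumors. Neutrophil sums were 623 to 2050, 442 to 849, 333 to 1290 and 530 to 821 in WT, KEAP1-KO A, KEAP1-KO B and DKO tumors, and 4 of 6 neutrophil markers were lower in KEAP1-KO than WT tumors. Skeletal muscle sums had medians of 10.4, 6.39, 5.54 and 152 in the same order, and the 1 marker tested was higher in DKO than KEAP1-KO tumors. Endothelial sums ranged from 852 to 1360 over all tumor libraries, with none of 6 markers changed. The part of these cells in the Hmox1 levels was not tested.

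Blvra, biliverdin reductase A, was low in all groups, with mean log2 levels of 3.89, 3.36 and 3.02 in WT, KEAP1-KO and DKO cells and 3.74, 4.02, 3.96 and 4.27 in WT, KEAP1-KO A, KEAP1-KO B and DKO tumors. DKO cells lay 1.83-fold below WT cells (limma adjusted p = 0.0148). With all listed Blvra transcripts summed that difference became −0.59 on the log2 scale (adjusted p = 0.0796). Neither KEAP1-KO minus WT (−0.53 in culture, adjusted p = 0.136, and 0.27 in tumors, adjusted p = 0.617) passed the test. The culture difference was called without a trend (adjusted p = 0.0473), but with all listed transcripts summed it became −0.03 (adjusted p = 0.947). The tumor difference vanished without KEAP1-KO replicate 1 (−0.0002).

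Fth1, the ferritin heavy chain, oxidizes iron as it enters the ferritin shell. In culture its log2 levels were 15.12, 14.90, 15.09 and 14.99 in WT, 15.38, 15.55, 15.43 and 15.52 in KEAP1-KO and 13.51, 13.53, 13.47 and 13.48 in DKO cells. In tumors they were 13.44, 13.52, 13.56 and 14.02 in WT, 14.64, 14.63, 14.43 and 14.67 in KEAP1-KO A, 14.17, 14.51, 14.52 and 14.39 in KEAP1-KO B and 12.85, 12.68, 12.89 and 12.85 in DKO. No KEAP1-KO library overlapped with a WT or DKO library of the same setting, and DKO libraries were the lowest in both settings. Fth1 was 1.36-fold higher in KEAP1-KO than WT cells (limma adjusted p = 5.34e-05) and 1.94-fold higher in KEAP1-KO than WT tumors (adjusted p = 1.81e-05). It was 3.92-fold lower in DKO than KEAP1-KO cells (adjusted p = 6.67e-11) and 2.99-fold lower in DKO than KEAP1-KO tumors (adjusted p = 1.73e-07).

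The other Fth1 transcripts moved the same way. Of the listed Fth1 reads 93.2% to 98.2% fell to the entry described above. The 3 other Fth1 transcripts tested were higher in KEAP1-KO than WT by 0.64 to 0.85 on the log2 scale in tumors and 0.67 to 0.80 in cells. In DKO minus KEAP1-KO they differed by −1.20 to −1.06 in tumors and −2.31 to −2 in cells.

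Ftl1, the ferritin light chain, helps the shell lay down its iron core, and its libraries spread more widely. In culture the log2 levels were 7.93, 7.31, 6.98 and 5.09 in WT, 8.22, 8.13, 7.37 and 5.90 in KEAP1-KO and 5.29, 5.06, 6.87 and 5.08 in DKO cells. In tumors they were 7.25, 8.44, 7.20 and 7.48 in WT, 9.16, 8.22, 9.77 and 8.74 in KEAP1-KO A, 8.59, 8.71, 8.50 and 7.61 in KEAP1-KO B and 7.36, 7.96, 6.79 and 6.94 in DKO. All these groups overlapped with their neighbors. KEAP1-KO tumors were 2.60-fold higher than WT tumors (limma adjusted p = 0.0172), a call lost without WT replicate 1 or 3 or KEAP1-KO replicate 3, where adjusted p reached 0.0563. DKO minus KEAP1-KO tumors gave −1.09 (adjusted p = 0.0749), which was called without KEAP1-KO replicate 4 (0.0354) or DKO replicate 2 (0.0393). In culture KEAP1-KO minus WT gave 0.58 (adjusted p = 0.649), from −0.004 without WT replicate 4 to 1.08 without KEAP1-KO replicate 4. There DKO minus KEAP1-KO gave −1.83 (adjusted p = 0.124), which was called without KEAP1-KO replicate 4 (adjusted p = 0.0446) and with a replicate block (adjusted p = 0.0477).

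Summing all listed Ftl1 transcripts narrowed this spread. The summed log2 level averaged 7.44, 8.68 and 6.55 in WT, KEAP1-KO and DKO cells and 8.004, 9.40, 9.02 and 7.74 in WT, KEAP1-KO A, KEAP1-KO B and DKO tumors. On this sum KEAP1-KO was higher than WT in cells (log2 difference 1.24, limma adjusted p = 0.0115) and tumors (1.40, adjusted p = 0.00153), and DKO was lower than KEAP1-KO in cells (−2.12, adjusted p = 0.000406) and tumors (−1.28, adjusted p = 0.00428). The iron-responsive element of Ftl1 printed above lies in the listed transcript ENSMUST00000210106 and outside the entry that carries the symbol.

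**Figure D2:**
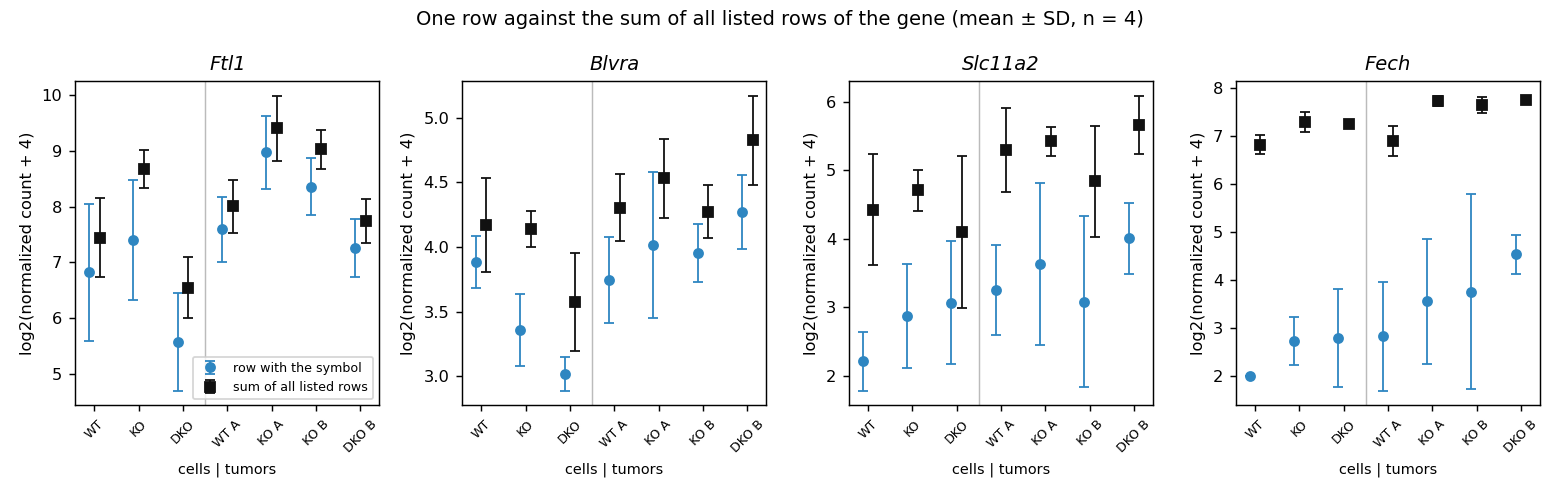
Log2 level of the entry with the gene symbol and of the sum of all listed transcripts of the gene (vertical axes), by group (horizontal axis). Ftl1, Blvra, Slc11a2 and Fech are shown, each point being a group mean with its SD. The sum separates the Ftl1 and Fech groups more clearly than the single entry does, with mean summed Ftl1 levels of 8.004 in WT and 9.40 in KEAP1-KO tumors of experiment A.

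Slc40a1, which encodes ferroportin, the exporter of iron from cells, had no reads in any of the 12 cultured libraries. In tumors its log2 levels were 6.34, 6.33, 6.79 and 7.17 in WT, 5.42, 5.23, 4.35 and 5.17 in KEAP1-KO A, 5.83, 5.79, 4.97 and 5.20 in KEAP1-KO B and 4.70, 4.03, 3.50 and 4.45 in DKO. WT tumors stood above all other tumors, and DKO tumors lay below every KEAP1-KO tumor of experiment B. Slc40a1 was 3.06-fold lower in KEAP1-KO than WT tumors (log2 difference −1.61, SE 0.30, limma adjusted p = 0.00172) and a further 2.42-fold lower in DKO than KEAP1-KO tumors (−1.28, SE 0.30, adjusted p = 0.0135). A second Slc40a1 transcript was also lower in KEAP1-KO than WT tumors (−0.97, adjusted p = 0.0407).

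Of the macrophage markers 10 of 11, and of the leukocyte markers 5 of 5, were lower in KEAP1-KO than WT tumors, as Slc40a1 was. In DKO against KEAP1-KO tumors, where Slc40a1 was lower, 4 of 11 and 5 of 5 were higher and none passed as lower. Set against a floor of 3 reads in a cultured library, the mean normalized count of Slc40a1 was at least 29.3-fold higher in WT, 8.84-fold in KEAP1-KO A, 12-fold in KEAP1-KO B and 4.35-fold in DKO tumors. The part of host cells in these levels was not tested.

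Tfrc, the transferrin receptor that brings in iron bound to transferrin, was measured at 11.75, 11.52, 11.48 and 11.49 in WT cells, 12.22, 12.49, 12.39 and 12.43 in KEAP1-KO cells and 11.45, 11.44, 11.33 and 11.46 in DKO cells. KEAP1-KO cells stood apart from both others. Tfrc was 1.77-fold higher in KEAP1-KO than WT cells (limma adjusted p = 3.52e-06) and 1.95-fold lower in DKO than KEAP1-KO cells (adjusted p = 1.28e-06). DKO minus WT cells gave −0.14 (adjusted p = 0.195). In tumors the levels were 10.70, 10.73, 10.64 and 10.20 in WT, 10.71, 10.97, 11.10 and 10.69 in KEAP1-KO A, 10.87, 11.17, 10.97 and 11.21 in KEAP1-KO B and 11.04, 11.14, 11.33 and 10.67 in DKO. Within each experiment the tumor groups overlapped, with KEAP1-KO minus WT at 0.30 (adjusted p = 0.223) and DKO minus KEAP1-KO at −0.01, with a 95% interval from −0.32 to 0.30 (adjusted p = 0.986).

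Of the other uptake genes, Slc11a2 encodes the proton-coupled carrier DMT1 and Steap3 the ferrireductase that works beside it in endosomes. Mean log2 levels of Slc11a2 were 2.21, 2.88 and 3.07 in WT, KEAP1-KO and DKO cells and 3.26, 3.64, 3.08 and 4.01 in WT, KEAP1-KO A, KEAP1-KO B and DKO tumors. Those of Steap3 were 2.26, 2.55 and 2 in cells and 2.75, 2.43, 2 and 2.60 in tumors, at or close to no reads. Steap3 did not pass the filter within cells or within tumors, nor did Slc11a2 within cells, and KEAP1-KO minus WT tumors gave 0.38 for Slc11a2 (limma adjusted p = 0.776), from 0.047 without KEAP1-KO replicate 2 to 0.92 without KEAP1-KO replicate 1. On the sum of its 3 listed transcripts Slc11a2 gave 0.13 in KEAP1-KO minus WT tumors (adjusted p = 0.836) and 0.83 in DKO minus KEAP1-KO tumors (adjusted p = 0.129), and was higher in DKO tumors than DKO cells by 1.57 (adjusted p = 0.00372). Tumor minus cell on this sum was 0.87 in WT (adjusted p = 0.103) and 0.42 in KEAP1-KO (adjusted p = 0.355).

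Fech, ferrochelatase, inserts iron into protoporphyrin in the last step of heme synthesis. The entry with its symbol held 0% to 9.71% of the listed Fech reads and was at no reads in all WT cell libraries. Its KEAP1-KO minus WT tumor difference of 0.72 did not pass the test (limma adjusted p = 0.677). Leaving out 1 library moved that difference between 0.30 and 1.25, without a call. The sum of all listed Fech transcripts averaged 6.82, 7.30 and 7.24 in WT, KEAP1-KO and DKO cells and 6.90, 7.73, 7.65 and 7.75 in WT, KEAP1-KO A, KEAP1-KO B and DKO tumors. On the sum KEAP1-KO was higher than WT by 0.49 in cells (adjusted p = 0.00664) and by 0.83 in tumors (adjusted p = 0.000138). DKO minus KEAP1-KO gave −0.06 in cells (adjusted p = 0.805) and 0.10 in tumors (adjusted p = 0.686), with SEs of 0.12 and 0.13, whereas Blvrb and Fth1 were lower in these comparisons.

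**Figure D3:**
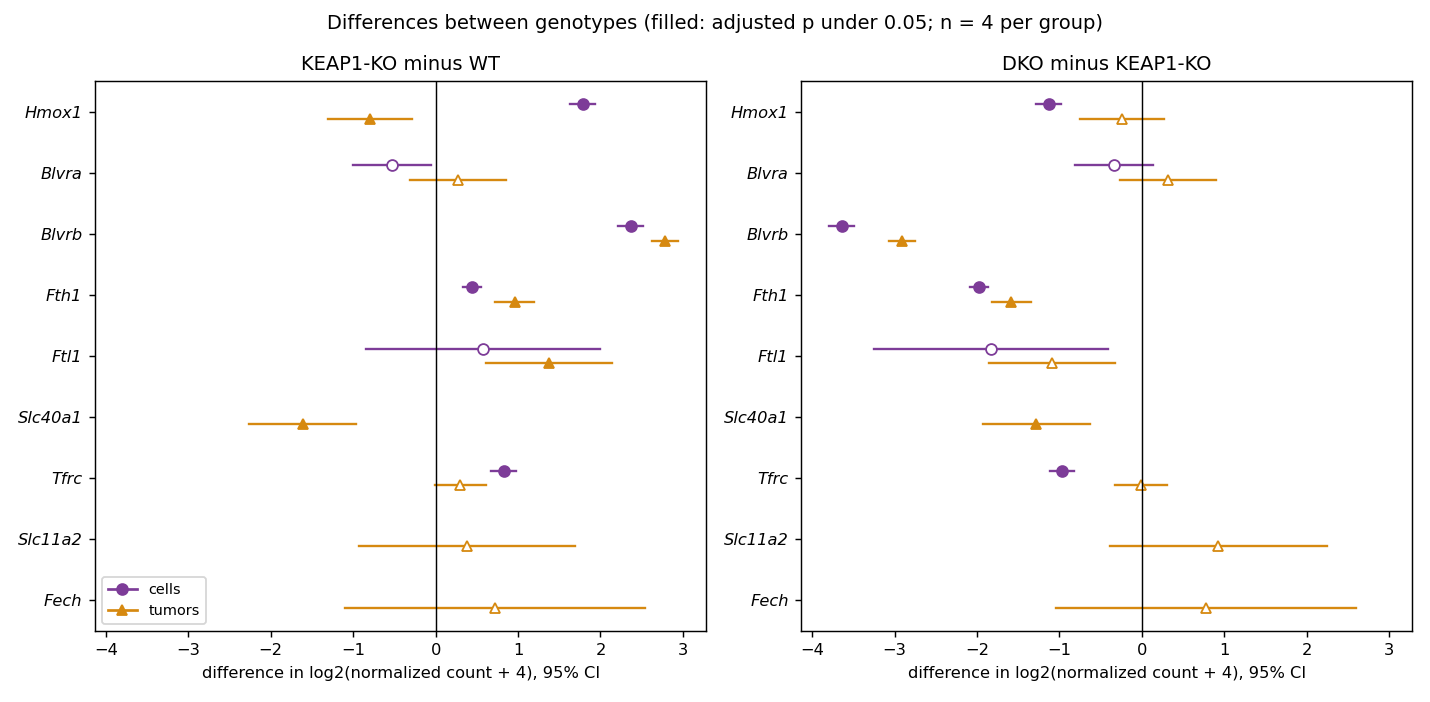
Log2 difference between genotypes (horizontal axis) for each member tested (vertical axis), in cells and in tumors, with 95% intervals and with called differences marked. Blvrb and Fth1 lie on the same side in cells and tumors, while Hmox1 lies at 1.79 in KEAP1-KO minus WT cells and at −0.80 in tumors.

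KEAP1-KO tumors of the 2 experiments, grown on opposite flanks, served as a comparison within 1 genotype. None of the 9 members tested differed by limma at an adjusted p of 0.05, where 0.164% of all entries changed, and 0 of 9 were under an unadjusted p of 0.05. The 2 groups did differ in host cell markers, with 4 of 11 macrophage and 2 of 5 leukocyte markers higher in experiment B. DKO tumors of experiment B against WT tumors of experiment A differ in experiment as well as genotype, which cannot be told apart. In that comparison 4 of 9 members changed, with 10.6% of all entries changed. Hmox1 (−1.21, adjusted p = 0.00357), Fth1 (−0.82, adjusted p = 0.000142) and Slc40a1 (−2.49, adjusted p = 5.85e-05) were lower in DKO. Tfrc was higher by 0.48 (adjusted p = 0.0475), a call lost in 10 of 18 alternatives, among them without WT replicate 1, 3 or 4 or DKO replicate 1, 2 or 3, with adjusted p up to 0.138. In cultured DKO against WT cells 4 of 6 members changed, with 17.7% of all entries changed, Hmox1 higher and Blvra, Blvrb and Fth1 lower, Fth1 by 2.88-fold (adjusted p = 1.1e-09).

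Levels in tumors and in culture were compared for each genotype in 1 fit of all 28 libraries. In WT, 5 of 10 members changed, with 38.8% of all entries changed. In KEAP1-KO 6 of 10 changed with 44% of entries, and in DKO 6 of 10 with 43.5%, so the share of members was near or somewhat above that of all entries. Slc40a1 is in each count, and since it passed the filter through the tumors alone it had to differ. The median log2 difference of all entries, tumor minus cell, was 0.20, 0.17 and 0.23 in the 3 genotypes. Hmox1 was higher in WT tumors than WT cells by 2.62 (limma adjusted p = 3.19e-11), differed by −0.06 in KEAP1-KO (adjusted p = 0.803) and was higher by 0.74 in DKO (adjusted p = 0.00293), a call lost under median centring (0.38, adjusted p = 0.147). Fth1 fell by 1.39 in WT, 0.97 in KEAP1-KO and 0.68 in DKO, the last of which reversed under quantile scaling. Tfrc fell by 0.99, 1.42 and 0.37, the last of which reversed under 2 scalings and lost its call without DKO tumor replicate 4 (−0.25, adjusted p = 0.0999). The epithelial markers of the tumor line had median sums of 4900, 3450 and 2640 normalized counts in WT, KEAP1-KO and DKO cells and of 3080, 2940, 2220 and 1630 in WT, KEAP1-KO A, KEAP1-KO B and DKO tumors, and the part of this difference in the members' levels was not tested.

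**Figure D4:**
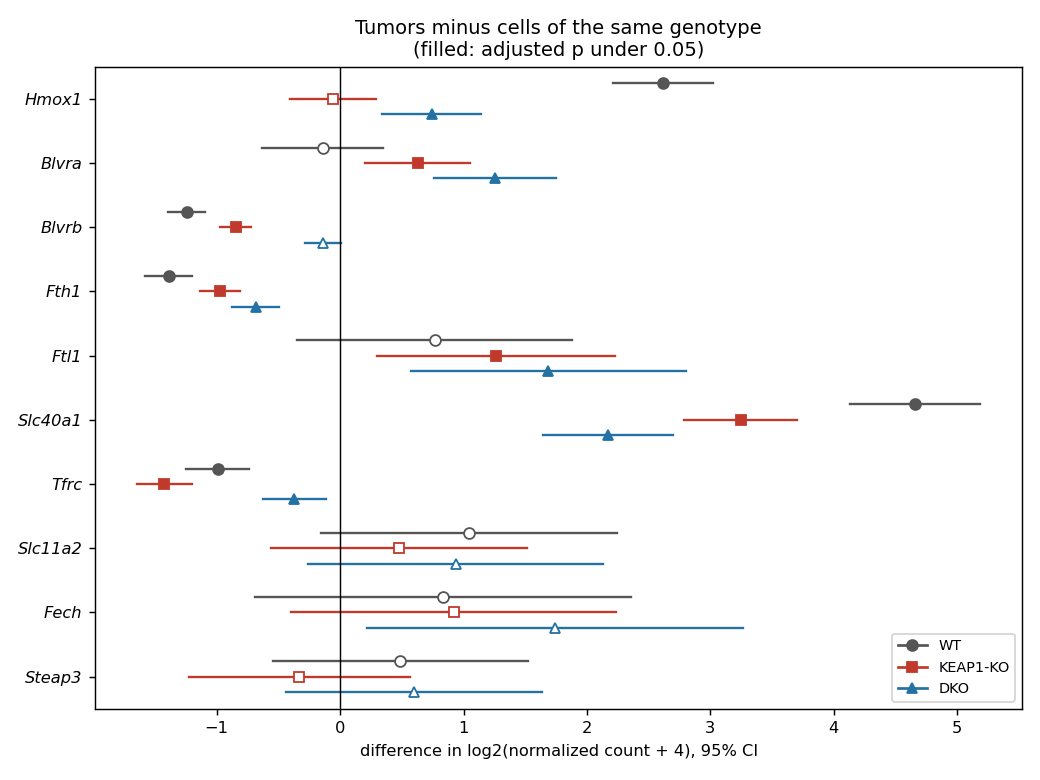
Tumor minus cell log2 difference (horizontal axis) of each member (vertical axis) in WT, KEAP1-KO and DKO, with 95% intervals, the KEAP1-KO value being the mean of experiments A and B against cells. Hmox1 lies at 2.62 in WT, −0.06 in KEAP1-KO and 0.74 in DKO.

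The difference between settings was tested directly. The effect of KEAP1 loss differed between tumors (experiment A) and cells for 4 of 10 members, with 5.38% of all entries so called. Slc40a1 is 1 of the 4, but it entered this fit through the tumors alone, and its value of −1.61 (adjusted p = 0.00605) is the tumor difference, so it is no comparison of settings. For Hmox1 the KEAP1 effect was lower in tumors by −2.59 on the log2 scale (SE 0.28, limma adjusted p = 5.77e-07), a call held in 24 of 24 alternatives. For Blvrb it was larger in tumors by 0.42 (adjusted p = 0.00981) and for Fth1 by 0.51 (adjusted p = 0.0172). The Blvrb call was lost without a trend (adjusted p = 0.059), and the Fth1 call without a trend (adjusted p = 0.0719) and under quantile scaling (adjusted p = 0.0661). Tfrc gave −0.53 (adjusted p = 0.0875). It was called with transcripts summed (adjusted p = 0.0451) and with library factors recomputed without the 20 highest entries (adjusted p = 0.0448). It was also called without WT tumor replicate 4 (adjusted p = 0.0146) or KEAP1-KO A replicate 3 (adjusted p = 0.0409). The effect of NRF2 loss in the KEAP1-KO background differed for 3 of 10 members, Slc40a1 again among them, with 3.67% of all entries so called. The fall of Blvrb was smaller in tumors by 0.74 (adjusted p = 4.5e-05) and that of Tfrc by 0.96 (adjusted p = 0.00125), and Slc40a1 gave −1.28 (adjusted p = 0.047), which is the tumor difference alone. The Slc40a1 call was lost in 17 of 24 alternatives, with adjusted p up to 0.132, and the Blvrb call under quantile scaling (0.15, adjusted p = 0.57). Hmox1 gave 0.89 (adjusted p = 0.078) and Fth1 0.39 (adjusted p = 0.115). Some alternatives called Hmox1, with adjusted p from 0.0373 (transcripts summed) to 0.0472 (without KEAP1-KO B replicate 2). Fth1 was called in 3 of 24, among them quantile scaling (adjusted p = 0.00257) and transcripts summed (adjusted p = 0.0432).

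Likeness of pattern was measured as the root mean square distance between group means over the 7 groups, each centered on its own mean, among 16564 symbols. The closest to Slc40a1 were Hpgds (0.43), Fcrls (0.44) and Nlrp3 (0.45), and the closest to Blvrb were Btc (0.35), Cat (0.36) and Pcx (0.39). Like Slc40a1, Hpgds and Fcrls averaged 2 in every cultured group, and Nlrp3 at most 2.56. In tumors they followed Slc40a1 less closely. DKO against KEAP1-KO B tumors averaged 4.17 against 5.45 for Slc40a1, 4.53 against 5.13 for Hpgds, 5.01 against 5.92 for Fcrls and 5.54 against 5.33 for Nlrp3.

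A wider list of iron and heme genes gave the setting of the members. Of its 57 listed genes 48 were tested in tumors and 40 in cells, many of them also through retained-intron or other noncoding transcripts. In KEAP1-KO against WT tumors 4 were higher and 10 lower of 48 tested, where 13.1% of all entries changed, with a median difference of −0.13 beside −0.03 for all entries. Among them Hephl1, a copper ferroxidase (1.92, limma adjusted p = 3.25e-05), Bmp6, the iron-sensing ligand that drives hepcidin (1.65, adjusted p = 3.49e-06), and Bach1, a heme-binding repressor of Hmox1 (0.92, adjusted p = 0.000177), were higher. Hephl1 passed the filter through the KEAP1-KO tumors alone, with at most 1.1 normalized counts in any WT or DKO tumor, so its differences had to follow. Hp, which binds free hemoglobin (−2.98), Lcn2, which binds iron-laden siderophores (−2.66), and Cp, the ferroxidase ceruloplasmin (−1.82, adjusted p = 0.0235), were lower. In DKO against KEAP1-KO tumors 3 were higher, namely Cp (3.65), Hp (1.42) and Lcn2 (1.42), and 7 lower, among them Bmp6 (−1.52), the metalloreductase gene Steap1 (−1.07) and Hephl1 (−1.06). The list thus had 10 of 48 changed, where 8.86% of all entries changed, with a median of −0.15 beside 0. Of the neutrophil markers 4 of 6 were lower in KEAP1-KO than WT tumors, as Hp and Lcn2 were, and 1 of 6 was higher in DKO than KEAP1-KO tumors, where Hp and Lcn2 were higher. Their part was not tested. Hp had no reads in any cultured library, so its tumor levels have no counterpart in the cells.

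In culture, 7 of the wider list were higher and 6 lower of 40 tested in KEAP1-KO than WT cells, where 15.5% of all entries changed, with a median of −0.06 beside 0.02 for all entries. The higher ones included Slc11a1, a metal carrier of phagosomes (2.26), Bach1 (1.38) and Bmp6 (1.16), and the lower ones Cp (−1.09), the iron-sulfur cluster assembly gene Lyrm4 and Cisd2 (−0.57). In DKO against KEAP1-KO cells 2 were higher, Cp (1.82) and Cpox (0.86), an enzyme of heme synthesis, and 8 lower, among them Slc48a1, a heme carrier (−2.98), Slc11a1 (−2.38) and Hfe, a partner of the transferrin receptor (−1.39). Slc11a1 passed the filter in culture through KEAP1-KO cells alone, with at most 4.29 normalized counts in any WT or DKO library, so its differences in culture had to follow. The list thus had 10 of 40 changed, where 8.83% of all entries changed, with a median of 0.06 beside −0.03. Cp and Bmp6 moved in opposite directions with genotype in both settings. Cp was low in KEAP1-KO, with mean log2 levels of 2.97 and 2.57 in tumors of experiments A and B and 2.92 in cells. Its WT and DKO means were 4.79 and 6.22 in tumors and 4.02 and 4.74 in cells. Cp may thus have passed the filter mainly through WT and DKO libraries, in which case its direction followed from the filter. Each difference named from the wider list passed limma at an adjusted p of 0.05.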

How the data were processed

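Cultured 3LL cells (12 libraries) and 3LL tumors (16) were profiled by RNA-seq after ribosomal RNA depletion with a strand-marking kit. The authors quantified reads with Salmon 1.5.1 against GENCODE mouse transcripts (version 35) and processed them in iDEP. The study's methods speak of TPM, but the deposited values are log2(normalized count + 4): with the logarithm undone, 100% of low values were whole reads after multiplication by a factor of their library (tolerance 0.05). Whether counting used the strand is not given in the sources used here.

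The log2 values were tested with limma 3.58.1 (R 4.3.3, trend) in 3 fits, of tumors, of cells and of all libraries, for 12 comparisons. An entry entered a fit if 4 or more of its libraries reached 5 normalized counts, leaving 34215, 29744 and 37246. P-values were adjusted by Benjamini-Hochberg over all entries tested, with a threshold of 0.05. The fits were tested on simulated data. Intervals are 95%, and floors (3 reads) cover counting error only. Reads assigned to the listed entries ranged from 4222386 to 7524301 per library, which is not the full sequencing depth. No pair of libraries held identical values.

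Groups came from sample titles. Replicate numbers were not taken to pair libraries. Members, the wider iron and heme list and marker lists (macrophages, leukocytes, neutrophils, red blood cells, fibroblasts, endothelium, hepatocytes, epithelium of the line and skeletal muscle) were chosen with earlier results of these data known. Named genes were the members, Keap1, Nfe2l2 and Nqo1, the 3 largest called rises and falls of the wider list in each comparison of adjacent genotypes, and the 3 symbols nearest in pattern to the 2 members with the widest range of group means. Alternatives were another offset (0.4), filters, scalings, no trend, summed transcripts, fewer groups in the fit, a replicate block and each library left out. Sequences came from GRCm38 (GENCODE vM21 and RefSeq) and were matched by stable ID or symbol.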

Additional observations from a re-analysis of the deposited data

Results flagged for a closer look

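Within groups of 4, a single library stood far from the other three, by Dixon's test at the 95% level, in 4 of 54 member-by-group sets, where chance gives about 1 in 20. These were Fth1 in KEAP1-KO tumors of experiment A (replicate 3 at 14.43), Ftl1 in DKO cells (replicate 3 at 6.87), Tfrc in WT cells (replicate 1 at 11.75) and Tfrc in DKO cells (replicate 3 at 11.33).

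The effect of a genotype differed between tumors and cells, by limma's interaction term, for Hmox1, Blvrb, Fth1 and Tfrc. Slc40a1 also passed this test, but it had no reads in culture and entered the fit through the tumors alone, so its values restate the tumor differences. For the KEAP1 effect the log2 difference of differences was −2.59 for Hmox1, 0.42 for Blvrb, 0.51 for Fth1 and −1.61 for Slc40a1. For the NRF2 effect it was 0.74 for Blvrb, −1.28 for Slc40a1 and 0.96 for Tfrc, the Slc40a1 call being lost in 17 of 24 alternatives. Tumor RNA contains host RNA and cultured RNA does not, and the part of this in the differences was not tested.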

How the results depend on the processing

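Over settings other than leaving out a library, 863 of 928 values kept their direction and their side of the threshold, 11 that were not called changed sign and stayed uncalled, 27 lost the call, 23 gained it and 4 changed sign with a call before or after. Those 4 were tumor minus cell differences in DKO: Fth1 (0.040) and Tfrc (0.38) under quantile scaling, and Blvrb (0.31, not called before and called after) and Tfrc (0.085) with library factors recomputed without the 20 highest entries. These scalings moved the median tumor minus cell difference of all entries from 0.20, 0.17 and 0.23 in WT, KEAP1-KO and DKO to −0.19, −0.08 and −0.14 with median centring and to 0.45, 0.38 and 0.52 without the 20 highest entries. The higher share of calls moved from 63.6%, 61.5% and 63.5% to 35.3%, 42.9% and 40.1%, and to 79.8%, 75.8% and 79.7%, and under quantile scaling to 47.2%, 50.2% and 49.4%. Without the 20 highest entries it also moved from 47.7% to 61.7% in DKO against KEAP1-KO tumors and from 43.3% to 60% in DKO against WT tumors.

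Counts of members called for the KEAP1 effect fell from 4 to 2 without a trend, with Blvrb (adjusted p = 0.059) and Fth1 (adjusted p = 0.0719) lost, and those for the NRF2 effect rose from 3 to 6 with all transcripts of a gene summed. The cause was not tested. The looser promoter letters matched 3 members in place of 1.

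Leaving out 1 library kept direction and side of the threshold for 960 of 1023 values, changed the sign of 22 that were not called, lost the call for 33, gained it for 8 and reversed no called value. Counts of members called then ranged from 3 to 5 in KEAP1-KO against WT tumors, 3 to 4 in DKO against KEAP1-KO and against WT tumors, 4 to 5 in DKO against KEAP1-KO cells and 5 to 7 in DKO tumors against cells, and stayed at 4 in KEAP1-KO against WT cells.

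For a check of pairing, each library was taken as its deviations from the group means. Correlations of these deviations between libraries with the same replicate number ran from −0.032 to 0.033. The deviations correlated best with their own number in WT with DKO cells (0.011 to 0.033) but in none of the other 4 group pairs checked. The replicate number as a block gave 5 members called in KEAP1-KO against WT tumors, 3 in DKO against KEAP1-KO tumors, 0 between the KEAP1-KO tumors, 4 in DKO against WT tumors, and 4, 5 and 4 in KEAP1-KO against WT, DKO against KEAP1-KO and DKO against WT cells. The added call was Ftl1 (−1.83, adjusted p = 0.0477). A level under the floor of 3 reads in a library could not be told from no reads, which bears on the entries of Fech, Slc11a2 and Steap3.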
